A study of Mus musculus with 18 samples.

Results

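The comparison described here is between 3 libraries of mouse embryos homozygous for Del(i9-13) and 3 wild type libraries at stage E10.5 of gestation, which are 6 of the 18 libraries of the series, chosen by their labels. The labels list Del(i9-13) among HoxB mutations, and its name was taken to mean that DNA between Hoxb9 and Hoxb13 is missing. No label gives the exact ends of the deletion. All embryos had their heads removed, all 6 libraries were ribo-depleted and stranded, and the wild type embryos were littermates of mutants, per the labels. Another 6 libraries of the same stage, 3 homozygous for Del(i9-13):Hoxb13hd and 3 homozygous for Hoxb13hd, entered the same model, which thus held 12 libraries in 4 groups. No label says what hd stands for, and these 6 libraries share no sample with the main comparison. The labels do not say whether a library is a single embryo or a pool, so the p-values cover only the spread among libraries. Both groups mixed sexes, as given below, so the libraries of a group were not all repeats of a single sample. Depth was even, from 22.2 to 24.2 M counts in Del(i9-13) and from 21.9 to 23.7 M counts in wild type.

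Hox genes encode homeodomain transcription factors that give cells along the head to tail axis their regional identity, and within a cluster they are switched on in the order in which they lie. Hoxb13 stands alone at the posterior end of HoxB, well away from Hoxb9, and in the mouse it is known as a gene of the late tail bud that limits axial growth. CTCF, a DNA-binding protein that separates chromatin domains, is named in the title of the series as insulating Hoxb13 and as tied to tail length. The comparison asks which genes change in the trunk and tail at E10.5 when the interval between Hoxb13 and the rest of the cluster is removed.

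2 genes of the interval are described here. Gm53 is a long noncoding RNA gene that starts 53658 bases beyond the end of Hoxb13. Mir196a-1 is a microRNA gene whose product is known to target Hox messenger RNAs. Its mature strands, as RefSeq gives them on GRCm38.p6 (plus strand of chromosome 11, chr11:96265187-96265208 and chr11:96265225-96265246), are shown because the gene lies between Hoxb13 and Hoxb9. Capitals mark the seed, bases 2 to 8, which pairs with targets.
mmu-miR-196a-5p: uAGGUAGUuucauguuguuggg
mmu-miR-196a-1-3p: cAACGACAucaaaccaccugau
Reads over the Mir196a-1 hairpin were too few to test, with 0.0801, 0 and 0.0422 CPM in Del(i9-13) and 0.317, 0.339 and 0.379 CPM in wild type. With 2, 0 and 1 counts left in Del(i9-13) and the ends of the deletion not given, removal of the hairpin was not shown. CPM are counts scaled to a library of 1 M with TMM factors. These libraries were not made to capture mature microRNAs, so the value describes the longer RNA of the locus.

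Of 17202 genes tested, 84 differed between Del(i9-13) and wild type at an adjusted p of 0.05 (edgeR quasi-likelihood test, Benjamini-Hochberg over all genes tested), which is 0.488% of them. These genes are said to be called below. There were 42 genes higher in Del(i9-13), 0.244% of those tested, and 42 genes lower, again 0.244%. The median log2 fold change over all genes tested was 0.002, and 1570 genes had an unadjusted p of at most 0.05. In all 84 called genes the Del(i9-13) and wild type libraries did not overlap in CPM, against 13.0% of all genes tested. The called genes ranged from small to large changes. In 43 of them the log2 fold change was at least 1 in size, 26 higher and 17 lower, and in 16 it was at least 5, 11 higher and 5 lower.

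The count of called genes depended on single libraries. With Del(i9-13) replicate 1 left out it was 285, with Del(i9-13) replicate 2 out 48, and with Del(i9-13) replicate 3 out 52. Leaving out wild type replicate 1 gave 61, wild type replicate 2 gave 40 and wild type replicate 3 gave 52. Of the 84 genes, 40 were called in each of these 6 fits, 41 in some of them and 3 in none. DESeq2 called 268 genes, 82 of them among the 84. Del(i9-13) replicate 1 stood apart from the other Del(i9-13) libraries, since the chi-square over its degrees of freedom was 50.8 against replicate 2 and 34.6 against replicate 3, where replicates 2 and 3 gave 10.3. Wild type replicate 3 likewise stood apart in its group, at 27.2 against replicate 1 and 23.8 against replicate 2, where replicates 1 and 2 gave 9.97. Xist, transcribed in female cells, was at 699 and 550 CPM in Del(i9-13) replicates 1 and 3 and 600 CPM in wild type replicate 2, and at most 1.45 CPM in the other 3 libraries, so that both groups mixed sexes.

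**Figure D1:**
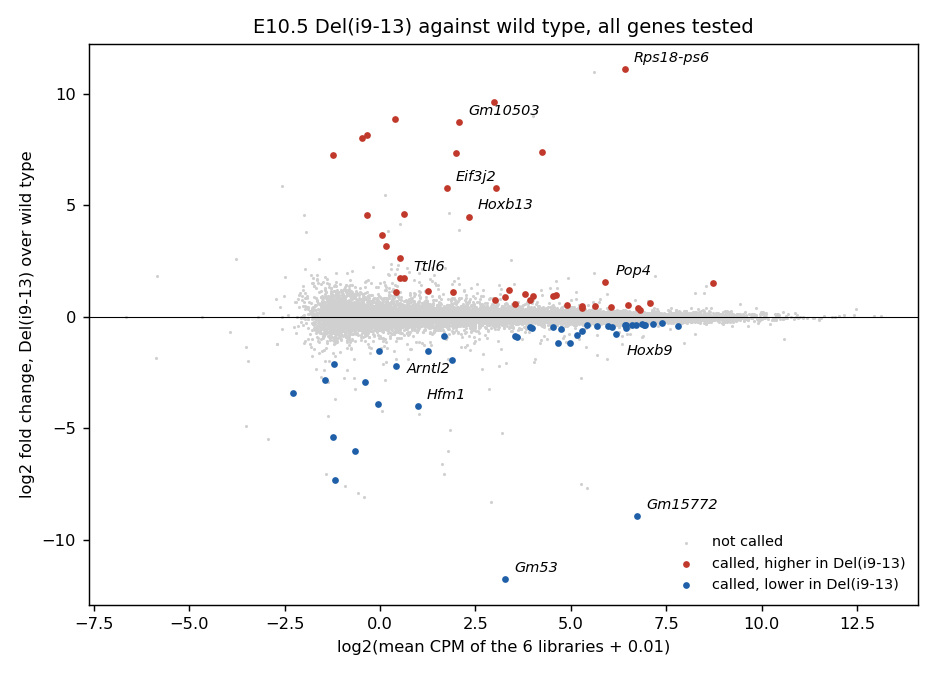
Log2 fold change of Del(i9-13) over wild type (vertical) against the log2 of the mean CPM of the 6 libraries (horizontal) for the 17202 genes tested. Called genes are red (42 higher) or blue (42 lower); most genes lie close to 0, and Gm53 at -11.78 and Rps18-ps6 at 11.10 are the outermost of the called genes.

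Hoxb13 was present in every Del(i9-13) library and near 0 in wild type. Its level was 10.8, 5.88 and 12.2 CPM in Del(i9-13), and 1.13, 0.127 and 0.0421 CPM in wild type. Every Del(i9-13) library was above every wild type library, and the highest wild type library was replicate 1. The log2 fold change was 4.49 ± 0.62 (SE), with an adjusted p of 0.0074 from edgeR. Summed over libraries the counts gave a ratio of 23.2, with an exact 95% interval of 16.0 to 35.0 that covers counting error only. Wild type replicate 1 held 25 of the 29 wild type counts, and without it the log2 fold change was 6.74. The call held in each of the 6 fits that left out a library, with an adjusted p of at most 0.05. It was lost with no filter on low counts (adjusted p of 0.053) and with the 6 libraries alone (adjusted p of 0.192), where edgeR estimates the spread from fewer samples. An exact two-sided permutation test of log2 CPM gave p = 0.1, the smallest that 3 against 3 libraries allow. In RNA of whole trunks, more cells with a transcript and more transcript per cell cannot be told apart.

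The flanking genes differed too. Ttll6, which encodes an enzyme that adds glutamate chains to tubulin in cilia, lies 28865 bases from Hoxb13 on the side away from the cluster. It was at 2.44, 2.17 and 2.49 CPM in Del(i9-13), against 0.816, 0.466 and 0.842 CPM in wild type. The groups did not overlap, with a log2 fold change of 1.74 ± 0.27 and an adjusted p of 0.00819 (edgeR), which became 0.0534 without wild type replicate 2. Atp5g1, the next gene tested beyond Ttll6 at 118646 bases from Hoxb13, had a log2 fold change of 0.02 and was not called.

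Ttll6 was the called gene nearest to Hoxb13 outside the interval, so the 250 bases upstream of its annotated start are shown (RefSeq, GRCm38.p6, plus strand, chr11:96133536-96133785).
Ttll6 upstream: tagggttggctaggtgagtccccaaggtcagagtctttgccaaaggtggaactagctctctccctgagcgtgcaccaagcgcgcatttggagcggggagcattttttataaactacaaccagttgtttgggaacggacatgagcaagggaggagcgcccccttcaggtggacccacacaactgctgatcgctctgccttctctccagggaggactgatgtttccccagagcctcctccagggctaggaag
The core sequence known to be bound by HOXB13, CAATAAA, was searched on both strands of such windows. It was in none of the 250 bases shown, which is why no letter is in capitals. It was in 3 of the 48 called genes with a window (6.25%) and in 1321 of the 27025 genes with a window (4.89%). A match describes letters and no more.

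Between Hoxb13 and Hoxb9, Gm53 had 0 counts in all 3 Del(i9-13) libraries, against 23.6, 18.7 and 15.6 CPM in wild type. With a floor of 3 counts over the Del(i9-13) group it was at least 453-fold lower. This absence checks the genotype labels, since Gm53 lies inside the interval, and it was also at 0 in the 3 Del(i9-13):Hoxb13hd libraries and at 30.4, 50.9 and 55.0 CPM in Hoxb13hd.

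Hoxb9, the HoxB gene on the far side of the interval, was at 59.3, 50.3 and 52.3 CPM in Del(i9-13), against 90.8, 99.5 and 82.7 CPM in wild type. All Del(i9-13) libraries were below all wild type libraries. The log2 fold change was -0.75 ± 0.11, with an adjusted p of 0.00426 (edgeR), and the call held in every one of the 18 alternative fits. None of Hoxb8, Hoxb7, Hoxb6, Hoxb5, Hoxb4, Hoxb3, Hoxb2 and Hoxb1 was called. Their log2 fold changes ran from -0.39 in Hoxb1 to 0.38 in Hoxb7, with adjusted p values of at least 0.337. Hoxb7 averaged 20.2 ± 2.81 CPM in Del(i9-13) and 15.6 ± 0.517 CPM in wild type (SD, n = 3 each), and Hoxb1 averaged 4.005 ± 0.254 CPM in Del(i9-13) and 5.25 ± 0.719 CPM in wild type. The antisense genes Hoxb3os and Hoxb5os were not called, at -0.26 and 0.12.

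Within 1 Mb of Hoxb13, 49 genes were tested and 6 called, against 0.488% of all genes. Beside Hoxb13, Ttll6, Gm53 and Hoxb9 they included D030028A08Rik, a noncoding transcript at over 700 kb from Hoxb13 on the side of the cluster. It was at 1.88, 1.49 and 1.182 CPM in Del(i9-13), against 6.35, 6.78 and 4.55 CPM in wild type. The groups did not overlap, with a log2 fold change of -1.95 and an adjusted p of 0.000602 (edgeR). Wild type was the high group, since D030028A08Rik was at 1.72, 1.44 and 1.82 CPM in Del(i9-13):Hoxb13hd, against 2.00, 1.80 and 2.43 CPM in Hoxb13hd.

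**Figure D2:**
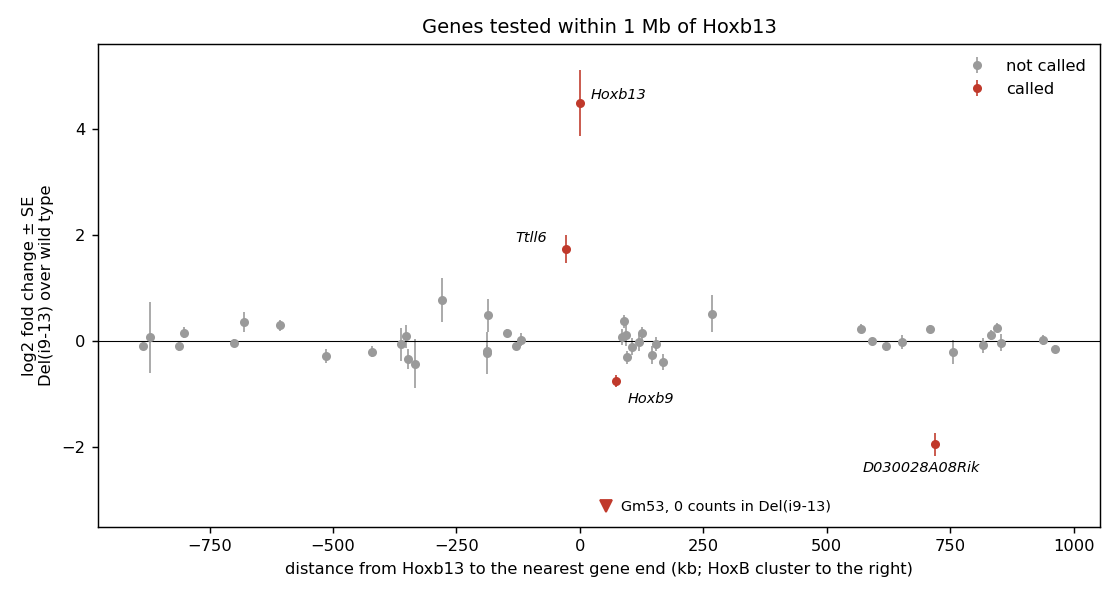
Log2 fold change ± SE of Del(i9-13) over wild type for 48 of the genes tested within 1 Mb of Hoxb13, by distance in kb from Hoxb13, with the HoxB cluster on the right. The 5 called genes drawn are red; Gm53, with 0 counts in Del(i9-13), is drawn as a triangle at the lower edge because its fitted value is not a size.

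Pop4, one of the named genes higher in Del(i9-13), is a protein subunit of RNase P and RNase MRP, the RNA enzymes that process transfer and ribosomal RNA precursors. It was at 75.2, 98.6 and 92.9 CPM in Del(i9-13), against 30.9, 30.6 and 28.2 CPM in wild type, and the groups were far apart. The log2 fold change was 1.57 ± 0.11, with an adjusted p of 6.44e-06 (edgeR). It was the one called gene among 13 RNase P and MRP genes, whose median log2 fold change was 0.18. The RNA subunit Rmrp was at 4457, 8411 and 6192 CPM in Del(i9-13), against 5230, 4989 and 4674 CPM in wild type, groups that overlap.

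H4f16, annotated as a histone H4 gene, was at 488, 782 and 635 CPM in Del(i9-13), against 221, 233 and 204 CPM in wild type. Emp1, an epithelial membrane protein, was at 28.6, 34.8 and 33.6 CPM in Del(i9-13), against 15.1, 15.5 and 18.02 CPM in wild type. Bcl2l12, a relative of the BCL2 regulators of cell death, was at 28.6, 32.5 and 30.3 CPM in Del(i9-13), against 15.4, 16.0 and 16.2 CPM in wild type. In each of these 3 genes the highest wild type library lay below the lowest Del(i9-13) library, and each stayed called in the 6 fits without 1 library. Their log2 fold changes were 1.53 ± 0.15 for H4f16, 0.99 ± 0.10 for Emp1 and 0.94 ± 0.09 for Bcl2l12. H4 histone genes are close in sequence, so reads of H4f16 may be shared with other copies.

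A further 7 named genes higher in Del(i9-13) lost the call in 3 or more of the 6 fits without 1 library. Gchfr, the feedback regulator of GTP cyclohydrolase I, had a log2 fold change of 1.76, Ankrd2, an ankyrin-repeat protein of muscle, 2.65, and Hoga1, a mitochondrial aldolase, 1.11. Ankrd2 was called in 2 and Gchfr and Hoga1 in 1 of these 6 fits. Chl1, a neural cell adhesion molecule related to L1, was at 14.4, 10.2 and 13.5 CPM in Del(i9-13), against 7.80, 6.44 and 6.19 CPM in wild type, and was called in 3. Zc3h6, a zinc-finger protein, was called in 3 of them, and Mettl23, a methyltransferase, and Hebp1, a heme-binding protein, in 2, with log2 fold changes of 1.10, 1.02 and 0.92. Smaller changes of the same sign were called in Arrdc3, an arrestin-domain protein (0.60), Cirbp, a cold-inducible RNA-binding protein (0.40), Pold1, the catalytic subunit of DNA polymerase delta (0.39), and Nnt, the mitochondrial transhydrogenase (0.44). These last 4 were named after their values were seen. Of the 6 fits without 1 library, Arrdc3 was called in 6, Nnt in 3, Cirbp in 2 and Pold1 in 1. In Ankrd2, Mettl23 and Pold1 the wild type libraries lay apart from all others of the stage, and those of Del(i9-13) did not.

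Of the named protein-coding genes lower in Del(i9-13), Hfm1, Qrich2 and Arntl2 had the largest log2 fold changes. Hfm1, a DNA helicase of meiotic recombination, was at 0.28, 0.136 and 0.253 CPM in Del(i9-13), against 4.26, 2.80 and 4.17 CPM in wild type. The groups were far apart, with a log2 fold change of -4.02 ± 0.39 and an adjusted p of 0.000179 (edgeR). Of the 8 meiotic recombination genes tested it was the one called, and 8 further members were too low to test. Arntl2, which encodes the clock protein BMAL2, was at 0.401, 0.724 and 0.295 CPM in Del(i9-13), against 2.36, 1.69 and 2.53 CPM in wild type, with a log2 fold change of -2.21 ± 0.31. None of the other 15 clock genes tested was called. Their median with Arntl2 was -0.07, and Clock, the next by p, had -0.28 with an adjusted p of 0.228. Qrich2, a gene known from sperm flagella, was at 0.2, 0.181 and 0.127 CPM in Del(i9-13), against 1.68, 1.57 and 0.758 CPM in wild type. Wild type was the group apart, since Qrich2 was at 0.133, 0.156 and 0.261 CPM in Del(i9-13):Hoxb13hd and at 0.42, 0.284 and 0.317 CPM in Hoxb13hd.

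Of 23 genes of sterol synthesis and uptake tested, 21 had a negative log2 fold change, with a median of -0.14 against 0.002 over all genes. Summed over the list, they gave 2376, 2442 and 2431 CPM in Del(i9-13), against 2667, 2679 and 2675 CPM in wild type, and the groups did not overlap. Lss, the enzyme that closes the sterol rings, had a log2 fold change of -0.28 with an adjusted p of 0.0846 (edgeR) and was not called. Scd1, the desaturase that makes monounsaturated fatty acids, was called at -0.37 and was named after its value was seen. Such a drop was not particular to this list. Of 22 cell cycle genes 18 were negative, with a median of -0.05, and of 15 p53 targets 12 were negative, with a median of -0.09. Cell cycle genes summed to 7343, 7558 and 7347 CPM in Del(i9-13), against 8014, 7955 and 7737 CPM in wild type. The sums of the p53 targets did not overlap between the groups either.

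Rbpj, the DNA-binding partner of the Notch receptors, was at 29.0, 22.6 and 25.5 CPM in Del(i9-13), against 45.1, 45.8 and 46.0 CPM in wild type. The log2 fold change was -0.83 ± 0.14, with an adjusted p of 0.0202 (edgeR), and it was called in 1 of the 6 fits without 1 library. Eef2k, the kinase of translation elongation factor 2, was at 21.1, 17.4 and 20.5 CPM in Del(i9-13), against 46.1, 39.9 and 45.5 CPM in wild type, and was called in 1 of them too. Wild type was the group apart, since Eef2k was at 17.3, 19.3 and 25.3 CPM in Del(i9-13):Hoxb13hd and at 20.4, 18.9 and 32.4 CPM in Hoxb13hd. Abca5, a lipid transporter, fell by 0.90 on the log2 scale and Stk38l, an NDR family kinase, by 0.56. Abca5 was called in 1 and Stk38l in 2 of the 6 fits. H2-Q7, a nonclassical MHC class I gene, was at 1.28, 0.543 and 1.77 CPM in Del(i9-13), against 3.40, 3.52 and 3.66 CPM in wild type. It was the one called gene of 15 tested in MHC class I presentation, and it was called in 2 of the 6 fits. The log2 fold changes of Gsg1, known from germ cells, and of Pxmp2, a peroxisomal membrane protein, were -1.54 and -0.84, and neither was called in any of the 6 fits without 1 library.

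**Figure D3:**
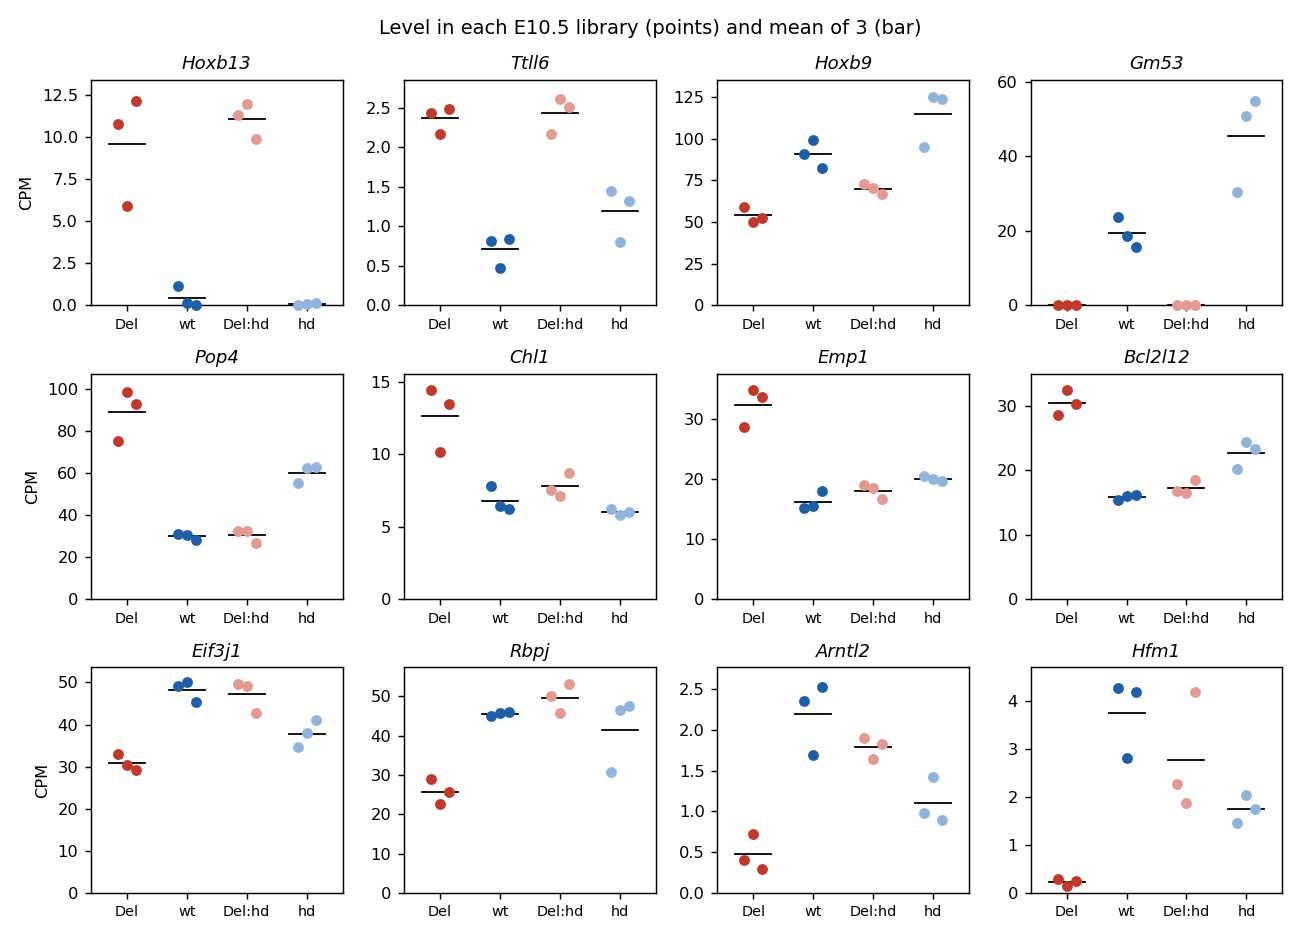
CPM in each E10.5 library for 12 genes, in Del(i9-13) (Del), wild type (wt), Del(i9-13):Hoxb13hd (Del:hd) and Hoxb13hd (hd), with the mean of 3 libraries as a bar. Del and wt do not overlap in any panel; Hoxb13, Ttll6, Hoxb9 and Gm53 separate the 6 deletion libraries from the 6 others, while Pop4 is at 60.1 CPM in hd and 30.5 CPM in Del:hd.

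The largest changes of all were in copies of other genes and in loci known by number that were present in all libraries of a group and near 0 in all of another. The genes in this and the next paragraph are singled out after their values were seen, apart from Gm53, Eif3j2, Eif3j1 and Hfm1. Of the 481 pseudogenes tested 19 were called, 3.95%, 13 higher and 6 lower in Del(i9-13), against 61 of 14340 protein-coding genes, 0.425%. Rps18-ps6, a copy of the ribosomal protein gene Rps18, was at 98.04, 285 and 128 CPM in Del(i9-13), against 0.181, 0 and 0.0421 CPM in wild type. Its parent Rps18 was not called, with a log2 fold change of -0.42 and an adjusted p of 0.177. Gm15772 was at 0.401, 0.317 and 0.549 CPM in Del(i9-13), against 171, 182 and 287 CPM in wild type. Pcna-ps2 was at 14.8, 17.02 and 16.97 CPM in Del(i9-13), against 0.227, 0.381 and 0.253 CPM in wild type, while Pcna, the replication clamp it copies, had -0.24 and was not called. The transcript of Pcna-ps2 matched that of Pcna at 99.23% of aligned bases, and those of Rps15a-ps5 and Rps15a-ps6 each matched Rps15a at 98.73%, so reads of copy and parent can be assigned to either.

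Eif3j2 and Eif3j1, which encode near-identical forms of subunit j of translation initiation factor 3, moved in opposite directions. Eif3j2 was at 7.17, 6.66 and 5.99 CPM in Del(i9-13), against 0.0453, 0.127 and 0.168 CPM in wild type. Eif3j1 was at 33.0, 30.3 and 29.1 CPM in Del(i9-13), against 49.0, 49.99 and 45.3 CPM in wild type, a log2 fold change of -0.64 ± 0.09 with an adjusted p of 0.00332 (edgeR). The transcripts are 99.41% identical over 99.6% of Eif3j2, so the split of reads between them is uncertain. Gm3650, which lies beside Eif3j2 on chromosome 18, was at 0.601, 1.09 and 0.802 CPM in Del(i9-13) and had 0 counts in wild type.

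Across the 4 groups most of these on or off genes did not separate the deletion libraries from the others. A group was taken as low where each of its libraries was under 1/10 of the highest group mean. Gm4353, Gm12312, Gm18234, Gm3650, Pcna-ps2, Eif3j2, Gm13328 and Gm5909 were low in wild type and in Del(i9-13):Hoxb13hd, so that Del(i9-13) and Hoxb13hd were the high groups. Rps15a-ps5, Rps15a-ps6 and Rps15a-ps8 were low in wild type alone. Rps18-ps6, Gm10503 and Glo1-ps were low in every group but Del(i9-13). Hfm1, Gm15772, Gm44067, Gm6685, Gm15975, Tcea1-ps1, Gm15950 and Gm5182 were low in Del(i9-13) alone, although Gm5182 was also called as lower in Del(i9-13):Hoxb13hd than in Hoxb13hd. Gm53 was the one gene low in both groups with the deletion and in no other, and Hoxb13 was low in Hoxb13hd alone by this measure, since wild type replicate 1 held 1.13 CPM.

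Called genes lay on every autosome but chromosome 9, with the largest shares on chromosomes 11 and 6. Chromosome 11, which carries HoxB, held 18 of 1307 genes tested (1.38%), and chromosome 6 held 9 of 880 (1.02%). Chromosome 9 had 0 called among 975. In windows of 10 Mb, 31 called genes fell in 8 windows with 3 or more, which held 983 genes tested, so 3.15% of those were called. Those windows were picked by their called genes, so this share is raised by that choice, and clustering was not tested. Apart from the window of Hoxb13 the 8 windows included 110 to 120 Mb of chromosome 11, with Abca5, Slc9a3r1, Endov, Qrich2 and Mettl23, and 130 to 140 Mb of chromosome 6, with Gsg1, Emp1, Hebp1 and H4f16 among 45 genes tested. These windows hold genes that were higher and genes that were lower, as with Gsg1 at -1.54 and Emp1 at 0.99.

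The posterior genes of the other Hox clusters were measured because Hoxb13 shares their late expression in the tail bud. None of the 14 tested was called, and their median log2 fold change was -0.13. The sign of that median rested on 1 library, since it was 0.10 without Del(i9-13) replicate 2, and it was -0.40 without Del(i9-13) replicate 1. Del(i9-13) replicate 2 was the lowest of the 6 libraries in 11 of the 14. Hoxc10, a gene of lumbar and hindlimb levels, was at 18.4, 0.498 and 12.6 CPM in Del(i9-13) replicates 1, 2 and 3, against 16.7, 15.7 and 14.2 CPM in wild type. Hoxa13, which marks the end of the body axis and the distal limb, was at 4.45, 0.317 and 5.32 CPM in Del(i9-13), against 5.39, 3.69 and 4.72 CPM in wild type. In both genes the other Del(i9-13) libraries lay within the wild type range or close to it.

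The same library was low in Hoxc11, at 3.96, 0.453 and 3.00 CPM in Del(i9-13), against 4.94, 3.98 and 2.40 CPM in wild type, and less so in Hoxd13, at 12.2, 6.16 and 16.7 CPM in Del(i9-13), against 12.2, 12.3 and 10.7 CPM in wild type. The exceptions among the 14 were Hoxa9, Hoxd9 and Hoxd10, for which wild type replicate 2 or 3 was lowest. Tbx4 and Pitx1, transcription factors of the hindlimb bud, were low in it too. Tbx4 was at 19.98, 3.03 and 14.9 CPM in Del(i9-13), against 18.6, 15.8 and 17.1 CPM in wild type, and Pitx1 at 29.96, 9.60 and 25.6 CPM in Del(i9-13), against 24.7, 25.5 and 24.1 CPM in wild type. Tbx5, the forelimb counterpart of Tbx4, was at 16.1, 21.4 and 17.3 CPM in Del(i9-13), against 15, 14.7 and 22.3 CPM in wild type, and Hoxb13 itself was lowest among the Del(i9-13) libraries in replicate 2. Without that library the log2 fold change was 0.00 for Hoxc10, where it was -0.55 with it, and 0.09 for Hoxa13, where it was -0.44, with adjusted p values of 0.999 and 0.97 (edgeR).

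**Figure D4:**
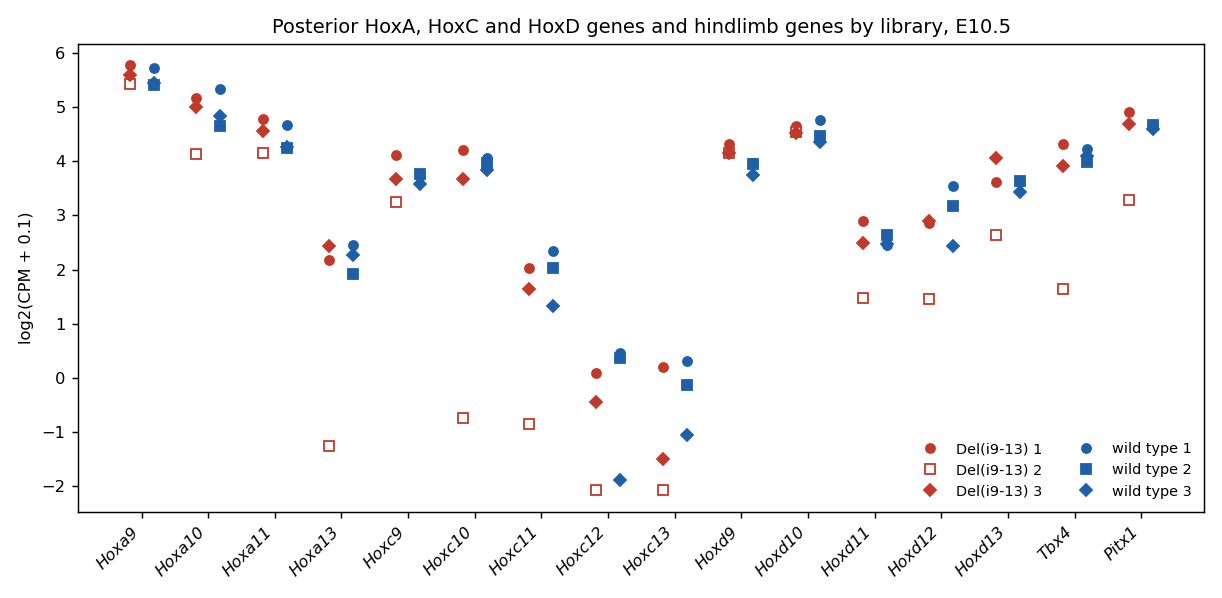
Log2(CPM + 0.1) of the 14 posterior HoxA, HoxC and HoxD genes and of Tbx4 and Pitx1 in the 3 Del(i9-13) libraries (red, left of each pair) and the 3 wild type libraries (blue, right). Open squares are Del(i9-13) replicate 2, the lowest of the 6 libraries in 11 of the 14 Hox genes; the other Del(i9-13) libraries overlap wild type in most genes.

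Marker lists for the tissues of a headless embryo showed which libraries differed in make-up. No gene of the lists for tail bud, presomitic mesoderm, somites, spinal cord, neural crest, limb buds, notochord, hindgut, nephric tissue, heart, liver, red blood cells, endothelium, macrophages or head was called. All 20 tail bud genes were tested, with a median log2 fold change of -0.19 and 16 negative, and without wild type replicate 2 the median was 0.04. Of 14 spinal cord progenitor genes 13 were negative, with a median of -0.19, and of 13 hindgut genes 12 were positive, with a median of 0.18. The progenitor genes summed to 191.3, 216.1 and 196.8 CPM in Del(i9-13), against 197.5, 249.7 and 237.9 CPM in wild type. The hindgut genes summed to 387.7, 360.2 and 323.6 CPM in Del(i9-13), against 327.8, 315.8 and 302.8 CPM in wild type. In both lists these sums overlapped between the groups. The lists for middle Hox genes, glycolysis, p53 targets, cell cycle, snoRNA hosts and mitochondrial transcripts held no called gene either, with medians from -0.12 to 0.07, and of the 11 tubulin glutamylation genes tested Ttll6 alone was called. T (brachyury), which marks the tail bud and notochord, was at 9.05, 6.38 and 7.09 CPM in Del(i9-13), against 12.1, 12.4 and 2.74 CPM in wild type. Cdx4, a caudal homeobox gene, was at 1.16, 0.996 and 1.27 CPM in Del(i9-13), against 1.81, 3.14 and 0.126 CPM in wild type. In these and in Fgf17 wild type replicate 3 was the lowest of the 6 libraries, and the other wild type libraries were above all of Del(i9-13).

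The 13 heart muscle genes summed to 201, 289 and 380 CPM in Del(i9-13), against 187, 393 and 1530 CPM in wild type, so that wild type replicate 3 stood out, with Myl2 at 52.8 CPM where the other 5 libraries had at most 0.718 CPM. The 11 liver genes summed to 1948, 377 and 334 CPM in Del(i9-13), against 626, 290 and 207 CPM in wild type, with Del(i9-13) replicate 1 apart. The median log2 fold changes of these lists, -1.15 for heart and 1.22 for liver, followed those single libraries, and were 0.05 for heart without wild type replicate 3 and 0.16 for liver without Del(i9-13) replicate 1. The 12 macrophage genes summed to 43.6, 23.6 and 25.9 CPM in Del(i9-13), against 29.6, 16.1 and 20.8 CPM in wild type, and 11 of them had a positive log2 fold change, none called. Their median was 0.56, and 0.28 without Del(i9-13) replicate 1. Of 15 head and brain genes 6 were tested, and all 6 had a positive log2 fold change, with a median of 0.50 and none called. Their list summed to 45.5, 45.4 and 42.9 CPM in Del(i9-13), against 33.4, 28.9 and 36.8 CPM in wild type, groups that do not overlap. Otx2, Six3 and Six6, which mark the forebrain, had 0 counts in all 6 libraries. Lhx2, expressed in limb buds as well as brain, was at 26.2, 28.7 and 25.2 CPM in Del(i9-13), against 19.7, 16.5 and 20.8 CPM in wild type, with an adjusted p of 0.0551. The part of these differences in the called genes was not tested.

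The deletion was compared a second time on the Hoxb13hd background, in libraries that share none with the main comparison. Of the 17202 genes tested 165 were called in Del(i9-13):Hoxb13hd against Hoxb13hd, 0.959% of them. Of the 84 genes called in Del(i9-13) against wild type, 6 were called there in the same direction, 13 in the opposite direction and 65 not at all. The 6 were Hoxb13, which was higher in both, and Gm53, Hoxb9, Abca5, Noc2l and Gm5182, which were lower in both. Hoxb13 was at 11.3, 11.98 and 9.90 CPM in Del(i9-13):Hoxb13hd, against 0, 0.0473 and 0.106 CPM in Hoxb13hd, and its log2 fold change there was 7.67 with an adjusted p of 0.00318 (edgeR). Hoxb9 was at 72.9, 70.2 and 66.6 CPM in Del(i9-13):Hoxb13hd, against 95.1, 125 and 124 CPM in Hoxb13hd. Its log2 fold change was -0.71, beside -0.75 in the main comparison, and the difference between the 2 had an adjusted p of 0.938. Noc2l, a nucleolar protein, and Gm5182 were named after their values were seen. In the main comparison Noc2l was called in 1 and Gm5182 in 3 of the 6 fits without 1 library.

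Ttll6 was at 2.17, 2.62 and 2.52 CPM in Del(i9-13):Hoxb13hd, against 1.45, 0.805 and 1.32 CPM in Hoxb13hd, again without overlap but with an adjusted p of 0.0707. All 6 deletion libraries lay on 1 side of the 6 others in 8 of the 84 genes, Hoxb13, Ttll6, Nnt, Hoxb9, Abca5, Qrich2, Gm5182 and Gm53. The 13 genes called in the opposite direction included Pop4, at 32.3, 32.4 and 26.8 CPM in Del(i9-13):Hoxb13hd, against 55.2, 62.4 and 62.6 CPM in Hoxb13hd. H4f16, Gchfr and Eif3j2 were among them, with log2 fold changes of -0.97, -1.65 and -6.35 there. An interaction term, which asks whether the change with the deletion differs with and without hd, was called in 90 genes over all (0.523%) and in 41 of the 84. With a single set of libraries for each genotype, an effect of hd cannot be told apart from other differences between the groups. The term contains the same Del(i9-13) and wild type libraries that chose the 84, so its share among them is raised by that choice. In 47 of the 84 genes the 3 Del(i9-13) libraries lay apart from all 9 others of the stage, in 28 the 3 wild type libraries did, and 8 genes are in both counts. The counts of genes with libraries apart were made for the 84 alone, and their share over all genes tested was not computed. Del(i9-13) and wild type already did not overlap in any of the 84.

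**Figure D5:**
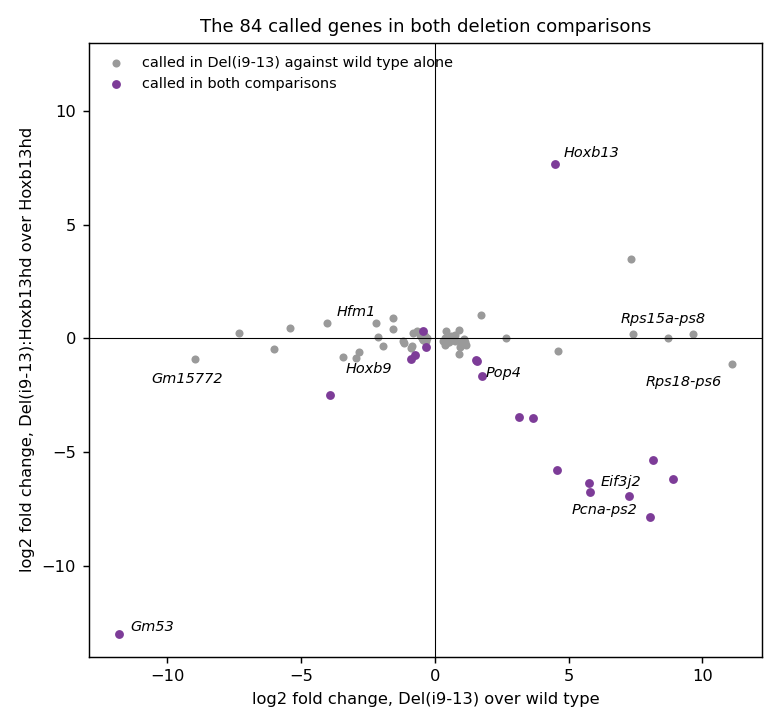
Log2 fold change in Del(i9-13):Hoxb13hd over Hoxb13hd (vertical) against that in Del(i9-13) over wild type (horizontal) for the 84 genes called in Del(i9-13) against wild type. Purple genes were called in both comparisons, 6 in the same direction, such as Hoxb13, and 13 in the opposite direction, at the lower right and near the centre; many others lie close to 0 on the vertical axis.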

How the data were processed

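RNA-seq of headless E10.5 mouse embryos was analysed, 3 libraries in each of 4 groups taken from the sample titles. The authors deposited a table of raw counts with 55141 genes and a table of FPKM with 55138. The submitters' processing notes name cutadapt 1.18, STAR 2.7.10a, Cufflinks 2.2.1 and mm10, with no role or order. No source used here states the counting annotation or strand setting, so values of copies, paralogs and antisense or overlapping genes are uncertain. FPKM coordinates (mm10) and GENCODE M21 gene types were used, and 0 columns were left unused.

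Counts were analysed with R 4.3.3 and edgeR 4.0.16 (filterByExpr with a minimum count of 10 and total of 15, TMM, robust quasi-likelihood fit of 12 libraries, Benjamini-Hochberg over all genes tested, adjusted p of at most 0.05). SE is the absolute log2 fold change over the square root of F. The interaction contrast was (Del(i9-13):Hoxb13hd minus Hoxb13hd) minus (Del(i9-13) minus wild type). The fit was tested on simulated data.

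Genes were named by rule. The rule took the HoxB and posterior Hox genes, Gm53, Mir196a-1, genes called within 1 Mb of Hoxb13, up to 14 called genes each way of largest change (1 CPM or more as the mean of a group, no overlap, no pseudogenes or unnamed symbols), and called members of 30 lists. Members and lists were chosen with earlier results of these data known, so lists have no test. Alternatives were RLE scaling, other filters, DESeq2 1.42.0, limma 3.58.1 on log2 FPKM, fewer libraries, a replicate block, an Xist covariate and a size condition. Intervals and the floor of 3 counts cover counting error only. Some genes that passed the naming rule are not reported here.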

Additional observations from a re-analysis of the deposited data

Results flagged for a closer look

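In 15 of the named genes the change with the deletion differed with and without hd, by the interaction term of the edgeR model (adjusted p of at most 0.05). Each genotype is a single set of libraries, so the deletion and hd cannot be told apart from other differences between the groups. All 15 were called in Del(i9-13) against wild type, whose libraries enter the term too. Naming genes by that change favours a call of the term. Each value is the log2 fold change in Del(i9-13):Hoxb13hd over Hoxb13hd minus that in Del(i9-13) over wild type. It was -12.13 for Eif3j2, whose log2 fold change was -6.35 in Del(i9-13):Hoxb13hd over Hoxb13hd and 5.78 in Del(i9-13) over wild type. For Hfm1 it was 4.68, and for Arntl2 2.91, both lower in Del(i9-13) and not called on the Hoxb13hd background. For Pop4 it was -2.55, for H4f16 -2.50 and for Gchfr -3.41, 3 genes that were called in opposite directions in the comparisons. Gsg1 had 2.42 and D030028A08Rik 1.63. Rbpj had 1.08 and Eif3j1 0.96. Hebp1 had -1.62, Bcl2l12 -1.33, Mettl23 -1.26, Zc3h6 -1.26 and Emp1 -1.15, all called as higher in Del(i9-13) and not called on the Hoxb13hd background. The largest adjusted p among the 15 was 0.0444, for Mettl23, and the smallest 1.05e-07, for Eif3j2. Hoxb13, Hoxb9 and Gm53 were not among them, with adjusted p values of 0.416, 0.938 and 1.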

How the results depend on the processing

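With 84 genes called in Del(i9-13) against wild type, the count was 268 with DESeq2, 55 with the 6 libraries alone, 49 with protein-coding genes alone, 43 with a log2 fold change of at least 1 in size as well, and from 40 (without wild type replicate 2) to 285 (without Del(i9-13) replicate 1) with a library left out. RLE scaling, the other filters, the Xist covariate, limma on FPKM and edgeR without its older dispersion method, which was added after seeing the data, gave from 57 to 106. In Del(i9-13):Hoxb13hd against Hoxb13hd, with 165 called, the count was 644 with DESeq2, 329 with no filter, 317 with the libraries compared alone, 109 with protein-coding genes alone, 70 with the size condition, and from 36 to 412 with a library left out. The interaction, with 90 called, gave 287 with DESeq2, 42 with protein-coding genes alone, and from 40 to 174 with a library left out. With the replicate number as a block the counts were 78, 223 and 66, and the numbers were not taken to pair these samples, since deviations of same-numbered libraries correlated at -0.003, -0.112 and 0.054. Hoxb13 was 4.50 with no filter and 4.49 with the 6 libraries alone, neither called, and it stayed called under the other 16. Of 534 values of 30 called named genes under an alternative, 412 kept direction and call, 122 lost the call and 0 changed sign. Of 450 values of named genes that were not called, 0 became calls. Of 210 medians of gene lists under an alternative, 33 moved by at least 1 SD of the list between wild type libraries. The cause of these shifts was not tested, except that fewer libraries or genes enter some fits. Genes under about 1 CPM rest on few counts, and in well-expressed genes the spread between libraries, not depth, limits precision.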

Other observations

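Genes around Glo1 on chromosome 17 were looked at after Glo1-ps and Gm10503 had been seen to be near 0 outside Del(i9-13). Glo1, which encodes glyoxalase I, an enzyme that clears methylglyoxal, was at 100, 168 and 116 CPM in Del(i9-13), against 82.5, 76.7 and 71.0 CPM in wild type, with a log2 fold change of 0.74 and an adjusted p of 0.0657 (edgeR), so it was not called. The groups did not overlap, and Del(i9-13) replicate 2 was the highest library. Gm10503, an antisense transcript further along the chromosome, was at 6.25, 12.6 and 6.42 CPM in Del(i9-13), against 0, 0.0424 and 0 CPM in wild type. Dnah8, an axonemal dynein gene that overlaps Glo1, was at 5.17, 6.97 and 3.88 CPM in Del(i9-13), against 2.67, 2.84 and 3.75 CPM in wild type, and was not called. Glo1-ps, on chromosome 2, was at 4.93, 13.0 and 5.74 CPM in Del(i9-13), against 0, 0.127 and 0 CPM in wild type. Glo1, Gm10503 and Glo1-ps were each highest in Del(i9-13) replicate 2. Btbd9 and Abcg1, on either side of these genes, had log2 fold changes of 0.08 and -0.10. Beyond Abcg1, Ubash3a was at 2.08, 4.84 and 1.14 CPM in Del(i9-13), against 0.907, 0.593 and 0.253 CPM in wild type. Its groups did not overlap, and it was not called. Glp1r, which overlaps Gm10503, had 1.32, was highest in Del(i9-13) replicate 1 and was not called. Slc37a1 and Pde9a, further along than Ubash3a, had 0.11 and -0.02.

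Besides the 16 called genes with a log2 fold change of at least 5 in size, 18 genes reached that size without being called. In several of these the libraries of a single group split. Gm13394 was at 148, 143 and 1.77 CPM in Del(i9-13), against 0, 0.0847 and 0.0421 CPM in wild type. Gm14513 was at 0, 0 and 96.4 CPM in Del(i9-13) and at most 0.136 CPM in wild type. Rps3a3, a copy of a ribosomal protein gene, was at 0.12, 0.498 and 0.633 CPM in Del(i9-13), against 0.181, 138 and 120 CPM in wild type. Hist1h2al, a histone H2A gene, was at 0.36, 0.543 and 0.38 CPM in Del(i9-13), against 0.499, 125 and 104 CPM in wild type. Gm7292 and Ndufa12-ps were at most 0.0801 CPM in Del(i9-13), against 8.89 CPM or more in 2 wild type libraries each and at most 0.127 CPM in the other. Myl2, the ventricular myosin light chain, was high in wild type replicate 3 alone.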
